A study of Homo sapiens with 4 samples.

Results

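The respiratory chain was examined in an RNA-seq series on the knockdown of LDB1 (LIM domain-binding protein 1, an adaptor of transcription complexes). Its members were the rows of the deposited expression table whose names mark subunits of complexes I to V, in the nuclear and the mitochondrial genome, with pseudogenes left out. The rule used names only, and it gave 102 of the 28412 rows. Of these, 13 were mRNAs of mitochondrial DNA and 79 were nuclear genes of subunits, while 6 were related factors and 4 were antisense, divergent or read-through RNAs. By complex, the nuclear subunits were 36 for complex I, 4 for complex II, 8 for complex III, 14 for complex IV and 17 for complex V. The mitochondrial mRNAs were 7, 0, 1, 3 and 2. NDUFA4 carries a complex I name and was placed with complex IV, where its protein sits. A further 43 pseudogene rows matched the names and were left out.

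There were 4 libraries of total RNA from cells labelled NB4, a human leukemia line of promyelocytic origin. In both groups the cells had been infected with a lentiviral Plko.1 vector that confers resistance to puromycin. The 2 sh-NC libraries carried the control vector, and the 2 sh-LDB1 libraries carried a short hairpin RNA against LDB1. The study designed 3 such hairpins, and which of them was sequenced is not given in the sources used here. Nor do the labels say whether the replicates came from separate cultures, so each p-value measures the spread between these libraries only, which may be technical.

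Complexes I to IV pass electrons from NADH and succinate to oxygen, and complexes I, III and IV pump protons across the inner mitochondrial membrane. Complex V, the ATP synthase, uses the proton gradient to make ATP. Complex II is encoded by nuclear genes alone, and the other complexes combine nuclear subunits with subunits that are made inside the mitochondrion from its own DNA. In red cell precursors, mitochondria also make heme, and they are lost as the cells mature.

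The libraries held 16346728 to 19070916 reads, recovered from the steps between the deposited values. Levels are in FPKM, fragments counted per kilobase of exon and divided by a total for each library. This total was not the recovered depth. It was 0.849 and 0.843 of the recovered reads in the sh-NC libraries, and 0.921 and 0.926 in the sh-LDB1 libraries. The control libraries held LDB1 at 135.1 and 120.1 FPKM. After the knockdown LDB1 stood at 10.2 and 9.47 FPKM, and its mean was 7.73% of that in the control. Markers of cell types moved with the groups. All 14 erythroid markers tested were lower, against 37.4% of all genes tested. Some of these averaged 1 FPKM or more only in sh-NC. All 11 that did so in both groups were lower. The summed level of the 15 with a row was 4188 and 4374 FPKM in the control and 390.3 and 354.1 FPKM after the knockdown. Of 8 granulocytic markers tested, 5 were higher, against 29.9% of all genes tested. All 5 were among the 6 that averaged 1 FPKM or more in both groups. The sum over 10 was 27.8 and 26.7 FPKM in the control and 79.8 and 76.7 FPKM after the knockdown. ELANE, which defines promyelocytes, was at 0.182 FPKM in sh-LDB1 replicate 1 and listed at 0 in the other libraries. MPO and CTSG, also on the granulocytic list, were matched to no row. The levels of the erythroid genes went against the label of the cells. The part of this shift in the results on the respiratory chain was not tested, and fewer cells of a type and less RNA per cell cannot be told apart in such libraries.

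The sequences below are promoters of some nuclear subunit genes, shown for description. They are those of the nuclear subunit genes with the 2 largest falls, NDUFA12 and UQCRC2, of the one with the largest rise, ATP5MC1, and of NDUFA8 and ATP5F1C, which hold a motif of NRF1, a transcription factor known for nuclear respiratory genes. Each runs 5′ to 3′ from 130 bases before the annotated start of transcription to 20 bases after it (RefSeq, GRCh38.p14), and capitals mark the motifs that were searched.
NDUFA12 (chr12:95003678-95003827, minus strand): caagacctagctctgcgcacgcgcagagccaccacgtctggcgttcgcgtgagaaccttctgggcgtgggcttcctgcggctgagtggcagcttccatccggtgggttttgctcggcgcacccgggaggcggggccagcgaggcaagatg
UQCRC2 (chr16:21953231-21953380, plus strand): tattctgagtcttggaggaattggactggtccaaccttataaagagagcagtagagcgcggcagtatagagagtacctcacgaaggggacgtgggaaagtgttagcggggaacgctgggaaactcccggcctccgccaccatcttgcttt
ATP5MC1 (chr17:48892657-48892806, plus strand): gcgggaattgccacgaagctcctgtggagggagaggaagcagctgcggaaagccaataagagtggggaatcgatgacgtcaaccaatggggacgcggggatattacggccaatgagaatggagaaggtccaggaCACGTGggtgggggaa
NDUFA8 (chr9:122159760-122159909, minus strand): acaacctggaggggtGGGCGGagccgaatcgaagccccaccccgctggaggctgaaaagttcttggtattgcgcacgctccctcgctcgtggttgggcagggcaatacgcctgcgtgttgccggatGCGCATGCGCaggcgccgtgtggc
ATP5F1C (chr10:7788047-7788196, plus strand): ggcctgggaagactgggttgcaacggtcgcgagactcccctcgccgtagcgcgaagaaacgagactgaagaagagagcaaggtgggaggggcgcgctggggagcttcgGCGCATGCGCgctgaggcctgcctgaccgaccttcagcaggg
No exact match to a motif searched fell in the windows of NDUFA12 and UQCRC2. Near matches were not counted. Examples are gcgcacgcgc in the NDUFA12 window, close to the NRF1 letters, and caccatctt in the UQCRC2 window, close to the YY1 letters given below, read on the other strand. The capitals for ATP5MC1 are an E-box, the letters to which MYC and MAX bind. It began at position 5, counting the start as the first base. NDUFA8 held the NRF1 motif from position -4 and an SP1 motif from -115, and ATP5F1C held the NRF1 motif from -22.

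Of the 79 nuclear subunit genes, 65 were matched by symbol to a promoter of 300 bases, 250 before and 50 after the start. The motifs were read on both strands as exact letters, so variants of a motif were not counted. The NRF1 motif (the capitals shown for ATP5F1C) was in 4 of the 65 (6.15%), against 1.52% of the 27305 genes in the table. The ETS motif (CCGGAAG), bound by GABPA, was in 21 (32.3% against 12.2%), and the YY1 motif (AAGATGGCG) was in 9 (13.8% against 2.14%). The E-box (CACGTG) was in 7 (10.8% against 8.77%) and the SP1 motif (GGGCGG) in 42 (64.6% against 48.3%). Matches of 2 different motifs overlapped in 1 of the 77 promoter entries of the members. A total of 31 of the 65 genes held at least one of the NRF1, ETS and YY1 motifs. The median log2 difference of the tested genes with an ETS motif was -0.28, and that of those without it was -0.47. For YY1 these medians were -0.27 and -0.39, for NRF1 they were -0.35 and -0.38, and for the E-box -0.33 and -0.38. For SP1 the order was the other way, at -0.42 with the motif and -0.30 without it. These shares and medians are descriptions of letters in a window and were not tested.

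To determine how the chain moved as a whole, sh-LDB1 was compared with sh-NC in 1 fit over all genes. The fit took genes that averaged 1 FPKM or more, on log2(FPKM + 1), a scale that understates the change of low genes, and a gene was called at a Benjamini-Hochberg adjusted p-value below 0.05 in limma. Of the 102 members, 94 were tested. There were 65 lower (69.1%) and 5 higher members, and 24 did not pass. Over all 13300 genes tested, 37.4% were lower and 29.9% were higher. The median log2 difference of the members was -0.43, and that of all genes tested was -0.08. NDUFA4L2, called higher, and NDUFV2, called lower, passed the filter only through the group where they were high, and without them 64 of 92 tested members were lower and 4 were higher. Past a fold change of 2, 9 of these 92 members were lower and 0 were higher, while 10.3% of all genes were lower and 9.5% were higher at that size. Libraries of different groups kept apart, with no overlap, in 86 of the 94 members and in 84.6% of all genes tested.

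The balance of directions depended on the scaling of the libraries. With TPM scaling (each library brought to the same sum of length-corrected levels), the median of all genes tested shifted from -0.08 to 0.06, the share of lower genes among all calls went from 55.6% to 45.4%, and the members were 49 lower and 11 higher. All 49 were among the 65. With scaling by total recovered reads the median over all genes was 0.02 and the members were 54 lower and 11 higher. This scaling put the recovered reads in place of the total behind the deposited FPKM. That total was a larger part of the recovered reads in sh-LDB1 than in sh-NC. Relative to the median of all genes, the nuclear subunits stood at -0.31 as deposited, at -0.28 with TPM and at -0.29 with total reads. The median of the mitochondrial mRNAs was -0.88 as deposited, -0.71 with TPM and -0.76 with total reads.

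**Figure D1:**
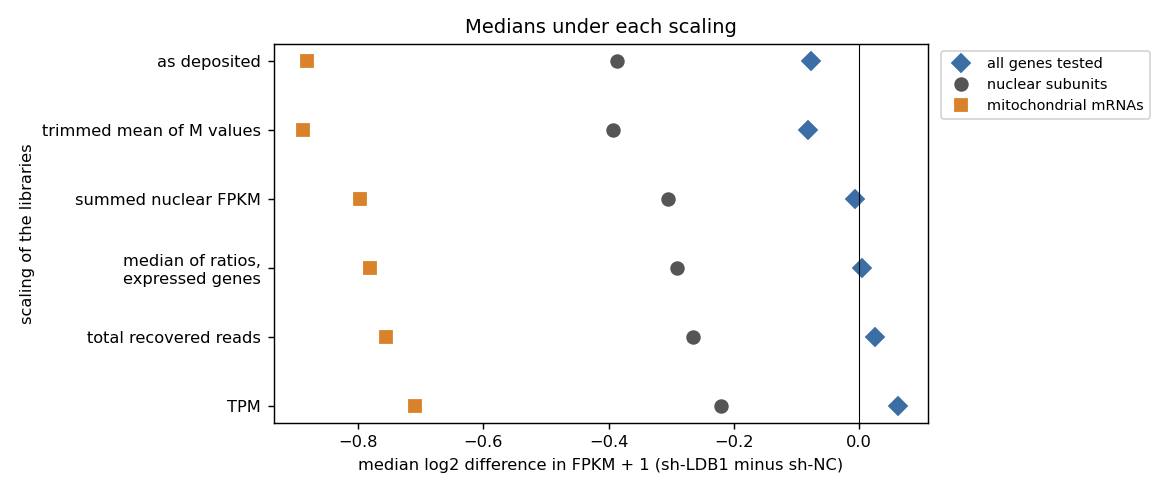
Median log2 difference in FPKM + 1 (horizontal axis, sh-LDB1 minus sh-NC) of all genes tested, of the nuclear subunits and of the mitochondrial mRNAs, under 6 scalings of the libraries (vertical axis). The nuclear subunits lie between -0.39 and -0.22 and the mitochondrial mRNAs between -0.89 and -0.71, and in every row both lie below the median of all genes, which goes from -0.08 to 0.06.

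As deposited, 37.4% of all genes tested were lower and 29.9% were higher (median -0.08). By complex, the nuclear subunits of complex III were lower without exception, 8 of 8 tested (median -0.43). For complex V it was 14 of 17, with 1 higher (median -0.53), and for complex IV it was 8 of 11 with 0 higher (median -0.47). In complex I, 21 of 35 were lower and 0 higher (median -0.29), and 14 did not pass. Complex II had 2 lower and 1 higher of 4 (50% and 25%, median -0.19), which is near the shares over all genes. Among the nuclear complex I genes, 6 of the 7 core subunits, which hold the flavin and the iron-sulfur clusters, were lower (median -0.37), and so were 15 of the 28 accessory subunits tested (median -0.27). In the ATP synthase, all 5 genes of the F1 part (its head and central stalk) and all 4 of the peripheral stalk were lower (medians -0.53 and -0.67). Of 5 small membrane subunits, 3 were lower, and 1 was without either sh-LDB1 library. The count for complex I was 13 lower and 1 higher without sh-LDB1 replicate 2, with 9 accessory subunits lower, and of the SDH genes of complex II 1 was lower without either sh-LDB1 library. With TPM scaling, complex I had 13 lower and 5 higher (median -0.14), complex II 1 and 1 (-0.03), complex III 6 and 0 (-0.26), complex IV 6 and 1 (-0.30) and complex V 11 and 1 (-0.36). Of the core subunits of complex I, 4 were then lower and 1 higher, and of the accessory ones 9 and 4. Differences between complexes were not tested.

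**Figure D2:**
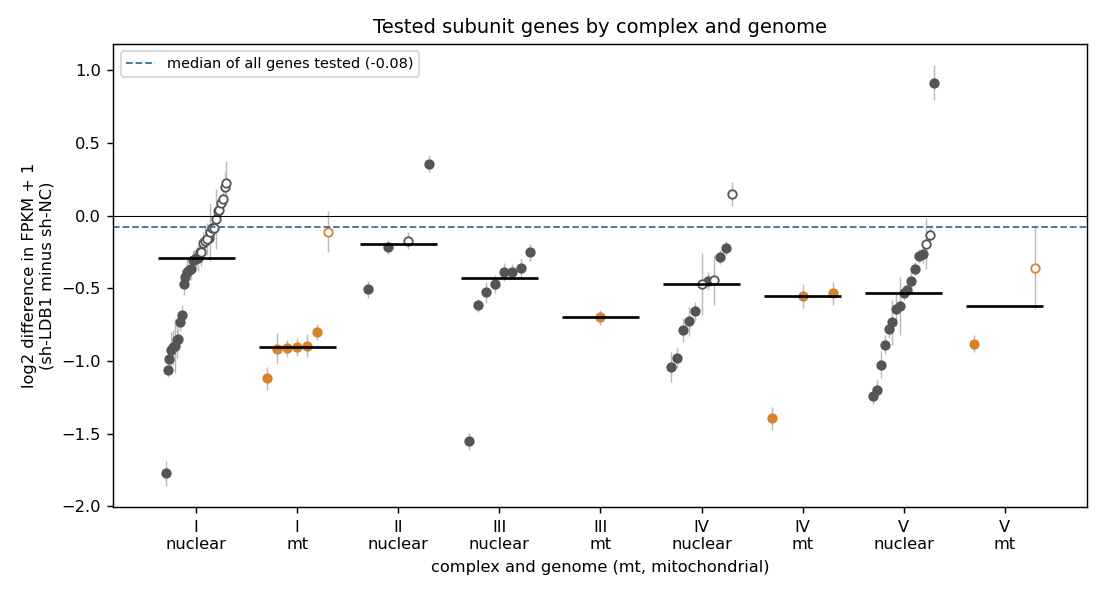
Log2 difference in FPKM + 1 (vertical axis, sh-LDB1 minus sh-NC, with its standard error) of each tested subunit gene, by complex and genome (horizontal axis). Filled points passed an adjusted p-value of 0.05, open points did not, black bars are medians, and the dashed line is the median of all genes tested (-0.08). Most points lie below that line, and the filled points above 0 are SDHC and ATP5MC1.

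The summed level of the 13 mitochondrial mRNAs was 37452 and 39408 FPKM in the control and 22955 and 21747 FPKM after the knockdown. The mean fell from 38430 ± 1383 to 22351 ± 854.2 FPKM (SD, n = 2 each), which left 58.2%. The groups did not overlap, and the exact two-sided permutation test gave p = 0.333, the smallest that 2 libraries against 2 allow. For the 79 nuclear subunits the sum was 5784 and 5360 FPKM in the control and 4121 and 4033 FPKM after the knockdown, which left 73.2% (exact permutation p = 0.333, again the smallest possible). By complex, the nuclear sum that remained was 77.7% for complex I, 86.5% for complex II, 68.8% for complex III, 70.0% for complex IV and 72.5% for complex V. The mitochondrial sums were at 55.2% for complex I, 61.6% for complex III, 60.7% for complex IV and 55.0% for complex V. Reads on mitochondrial DNA made up 3.97% and 4.22% of the recovered reads in the control and 2.94% and 2.82% after the knockdown. Levels are per base of all annotated exons of a gene, and the length behind them ranged from 507 bases for COX8A to 19034 bases for NDUFA10, so a gene with a long rare exon has a low FPKM and little weight in these sums.

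The mitochondrial mRNAs come from 2 long transcripts, 1 from each strand, that are cut mostly at tRNAs between the coding sequences. No tRNA lies between MT-ATP6 and MT-CO3, which meet at base 9207. Of the 13, 11 were lower in sh-LDB1 (limma, adjusted p-values below 0.05) and 0 were higher, against 37.4% and 29.9% of all genes tested. The largest difference was that of MT-CO3, the third subunit of cytochrome c oxidase. It was at 4775 and 5104 FPKM in the control libraries and at 1973 and 1790 FPKM after the knockdown, a log2 difference of -1.39 (standard error 0.08, limma adjusted p = 0.000257). The other 2 mitochondrial subunits of the enzyme fell less. MT-CO1, which holds the site where oxygen is reduced, was at 7512 and 8267 FPKM in the control libraries and at 5531 and 5348 FPKM after the knockdown (log2 difference -0.53, limma adjusted p = 0.00425). MT-CO2, which takes electrons from cytochrome c, was at 6051 and 6699 FPKM in the control libraries and at 4472 and 4206 FPKM after the knockdown (-0.55, limma adjusted p = 0.00436). Both MT-CO1 and MT-CO2 missed the threshold when either sh-LDB1 library was left out, with MT-CO1 at -0.56 and -0.51 and MT-CO2 at -0.60 and -0.51. In each such fit a gene's own spread came from the other group's 2 libraries, and limma pulled it toward that of genes of similar level. The library left alone was assumed to vary in the same way. Neither passed when genes of low level were kept in the fit (limma adjusted p = 0.402 for MT-CO1 and 0.322 for MT-CO2). Within a library, MT-CO3 was 63.6% and 61.7% of MT-CO1 in the control and 35.7% and 33.5% after the knockdown. This ratio does not depend on the scaling of the libraries.

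The complex I mRNAs of mitochondrial DNA encode the membrane arm that pumps protons. MT-ND1 was at 2116 and 2407 FPKM in the control libraries and at 1059 and 1016 FPKM after the knockdown (log2 difference -1.12, standard error 0.08, limma adjusted p = 0.000481). MT-ND2, MT-ND3, MT-ND4, MT-ND4L and MT-ND5 had log2 differences of -0.90, -0.90, -0.80, -0.91 and -0.91. For none of these 6 did the groups overlap, which also held for 84.6% of all genes tested. MT-ND6, the one mRNA made from the other strand, was at 978.4 and 744.9 FPKM in the control libraries and at 809.2 and 772 FPKM after the knockdown. Its groups overlapped (log2 difference -0.11, limma adjusted p = 0.52), and the sign turned with TPM scaling (0.062), with scaling by total reads (0.015) and without sh-NC replicate 1 (0.085). Without sh-NC replicate 2 the difference was -0.31. MT-ND6 was 70.3% and 57.7% of its neighbour MT-ND5 in the control and 113% and 109.2% after the knockdown. Use of strand was not given, so reads of the precursor opposite MT-ND6 may have been counted with its own.

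**Figure D3:**
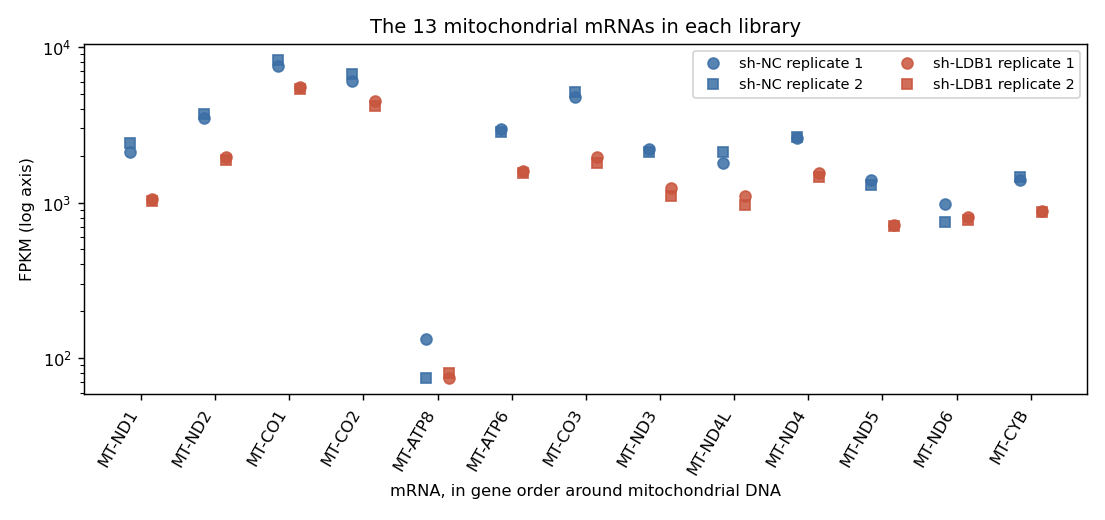
FPKM (vertical axis, log scale) of the 13 mRNAs of mitochondrial DNA in each library, in gene order (horizontal axis). For 11 mRNAs both sh-LDB1 libraries lie below both sh-NC libraries, and for MT-ND6 and MT-ATP8 the groups overlap. Groups did not overlap, in either direction, in 84.6% of all genes tested.

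MT-CYB, the cytochrome b of complex III, was at 1388 and 1451 FPKM in the control libraries and at 885.6 and 863.8 FPKM after the knockdown (log2 difference -0.70, limma adjusted p = 0.000509). MT-ATP6, the subunit that forms the proton path of the ATP synthase, was at 2959 and 2835 FPKM in the control libraries and at 1600 and 1544 FPKM after the knockdown (-0.88, limma adjusted p = 0.000367). MT-ATP8 shares an mRNA with MT-ATP6, and it was at 132.5 and 74.0 FPKM in the control libraries and at 74.2 and 80.1 FPKM after the knockdown. Its groups overlapped (-0.36, limma adjusted p = 0.318). Without sh-NC replicate 1 the value for MT-ATP8 was 0.058, and without sh-NC replicate 2 it was -0.77. Only 226 to 444 reads per library were behind it, against 15914 to 32611 for MT-ATP6. The 2 reading frames share 46 bases, 22.2% of the 207 bases of MT-ATP8, and reads there cannot be given to one gene. They are shown in capitals here, at the end of the whole MT-ATP8 sequence (chrM:8366-8572, plus strand, hg38), beside the last 60 bases of MT-ND4L (chrM:10707-10766, plus strand), where 7 bases are shared with MT-ND4.
MT-ATP8: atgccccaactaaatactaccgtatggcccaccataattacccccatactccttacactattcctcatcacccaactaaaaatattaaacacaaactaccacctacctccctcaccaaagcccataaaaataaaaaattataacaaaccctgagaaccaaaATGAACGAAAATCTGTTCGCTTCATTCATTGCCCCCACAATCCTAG
MT-ND4L: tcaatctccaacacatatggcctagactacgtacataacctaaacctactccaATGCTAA
Other RNAs of mitochondrial DNA did not all follow the mRNAs. The small ribosomal RNA MT-RNR1 was at 1280 and 1422 FPKM in the control libraries and at 1742 and 1649 FPKM after the knockdown (log2 difference 0.33, limma adjusted p = 0.0164). The large ribosomal RNA MT-RNR2 was lower, at 5324 and 5996 FPKM against 4493 and 4285 FPKM (-0.36, limma adjusted p = 0.0186). Of the 22 tRNA rows, 12 were lower and 0 higher, against 37.4% and 29.9% of all genes tested. The lowest was MT-TG, which lies between MT-CO3 and MT-ND3, at 299.9 and 371 FPKM against 61.5 and 66.1 FPKM (-2.37, limma adjusted p = 0.000184). A tRNA is shorter than a usual read, and such rows can hold pieces of the precursor. Near-identical nuclear copies can take reads of these genes: among 57 such rows, 3 averaged 1 FPKM or more, and MTND2P28 was at 216.5 and 231 FPKM against 115.2 and 97.2 FPKM.

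Among the nuclear genes of complex I, the largest fall was that of NDUFA12 (ENSG00000184752, chromosome 12, 94895297 to 95003748, minus strand), an accessory subunit of the arm that takes up NADH. It was at 35.0 and 31.2 FPKM in the control libraries and at 9.56 and 8.41 FPKM after the knockdown. The mean left was 27.1% of the control, and the log2 difference was -1.77 (standard error 0.09, limma adjusted p = 0.000196). NDUFA10, another accessory subunit, was at 14.8 and 15.0 FPKM against 6.66 and 6.60 FPKM (-1.06, limma adjusted p = 0.000165). NDUFB9, of the membrane arm, was at 68.01 and 63.67 FPKM against 32.5 and 33.0 FPKM (-0.98, limma adjusted p = 0.0002). For these 3 genes the groups lay far apart. NDUFS5, with the highest level per length, was at 327.2 and 286.2 FPKM against 239.5 and 234.8 FPKM (-0.37, limma adjusted p = 0.0122), and it missed the threshold under TPM scaling (-0.19) and without sh-LDB1 replicate 1 (-0.38) or 2 (-0.35). The 14 genes that did not pass ranged from NDUFC1 (-0.25) to NDUFA1 (0.22). Under TPM scaling 5 of them passed as higher, which were NDUFA5, NDUFB3, NDUFB4, NDUFS4 and NDUFS8. NDUFA7 was below the filter, at 0.53 to 0.795 FPKM over the 4 libraries.

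Complex II, which links the citric acid cycle to the chain, moved in both directions. SDHA, the flavoprotein that oxidizes succinate, was at 23.3 and 21.8 FPKM in the control libraries and at 15.9 and 15.2 FPKM after the knockdown (log2 difference -0.51, limma adjusted p = 0.00167). SDHB, the iron-sulfur subunit, was at 41.4 and 43.8 FPKM against 36.4 and 36.7 FPKM (-0.22, limma adjusted p = 0.0145). This call was lost under 4 of the 5 other scalings (-0.13 to -0.05) and without either sh-LDB1 library (-0.21 and -0.22). SDHC, which anchors the complex in the membrane, was higher, at 8.37 and 8.04 FPKM against 11.1 and 10.5 FPKM (0.36, limma adjusted p = 0.00566). SDHD, the other anchor, was at 29.0 and 31.8 FPKM against 26.6 and 27.2 FPKM and did not pass (-0.17, limma adjusted p = 0.0574). Within a library SDHC was 20.2% and 18.3% of SDHB in the control and 30.6% and 28.5% after the knockdown.

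In complex III the fall of UQCRC2 (ENSG00000140740, chromosome 16, 21953288 to 21983660, plus strand), one of the core proteins on the matrix side, stood apart from that of the other 7. It was at 41.1 and 45.0 FPKM in the control libraries and at 13.99 and 14.04 FPKM after the knockdown, with a log2 difference of -1.55 (standard error 0.06, limma adjusted p = 0.000121). Its partner UQCRC1 was at 74.8 and 68.4 FPKM against 60.2 and 59.7 FPKM (-0.25, limma adjusted p = 0.0157). UQCRH, the hinge protein and the nuclear subunit of highest level in this complex, was at 370.6 and 357.1 FPKM against 240.1 and 234.2 FPKM (-0.62, limma adjusted p = 0.000468). UQCR11, a small subunit, had a log2 difference of -0.53. UQCRHL, a gene without introns that resembles UQCRH and can share its reads, was at 8.53 and 9.49 FPKM against 5.58 and 5.58 FPKM (-0.60, limma adjusted p = 0.00187). CYC1, cytochrome c1, lay outside the name rule and was at 239.1 and 200.9 FPKM against 150.4 and 151.4 FPKM (-0.54).

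In complex IV, COX7B was at 43.2 and 50.6 FPKM in the control libraries and at 23.7 and 20.8 FPKM after the knockdown (log2 difference -1.04, standard error 0.10, limma adjusted p = 0.00122). COX5A was at 101.3 and 97.4 FPKM against 52.7 and 47.0 FPKM (-0.98, limma adjusted p = 0.000438). COX7C was at 214.8 and 204.2 FPKM against 129.9 and 112.2 FPKM (-0.79, limma adjusted p = 0.00142). These 3 are small subunits around the catalytic core. COX4I1, the common form of subunit 4, was at 97.9 and 94.6 FPKM against 77.1 and 80.6 FPKM (-0.28, limma adjusted p = 0.00537), and this call was lost under TPM scaling (-0.11). COX8A, of the highest level among the nuclear subunits of the complex, was at 377.1 and 246.5 FPKM against 210.3 and 229.4 FPKM and did not pass (-0.47, limma adjusted p = 0.114). Its sh-NC replicates differed by more than the groups' nearest libraries, and without sh-NC replicate 2 the difference for COX8A was -0.78, against -0.17 without replicate 1. COX6A1 was at 69.3 and 48.8 FPKM against 43.4 and 41.7 FPKM (-0.44, limma adjusted p = 0.0782), and it was at -0.20 and -0.69 with sh-NC replicate 1 or 2 left out. In these fits with an sh-NC library left out, the distance between the sh-NC libraries was removed. The own spread of COX8A and COX6A1 then came from the 2 close sh-LDB1 libraries, and limma pulled it toward that of genes of similar level.

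Some genes encode tissue forms or relatives of a subunit. COX7A2, the common form of its subunit, was at 74.9 and 71.3 FPKM in the control libraries and at 63.8 and 61.4 FPKM after the knockdown (log2 difference -0.22, limma adjusted p = 0.0142). The call was lost under 4 of the 5 other scalings (-0.14 to -0.05) and without either sh-LDB1 library (-0.25 and -0.19). COX7A1, the heart and muscle form, was below the filter, at 0.369 and 0.27 FPKM against 0.807 and 0.723 FPKM. COX7A2L, a related protein that helps to join complexes III and IV, was higher, at 17.6 and 16.7 FPKM against 27.1 and 27.0 FPKM (0.63, standard error 0.05, limma adjusted p = 0.000532). It was 23.4% of COX7A2 in each sh-NC library and 42.5% and 44.01% in the sh-LDB1 libraries. NDUFA4 was at 46.0 and 50.1 FPKM against 33.9 and 35.9 FPKM (-0.45, limma adjusted p = 0.00327). Its relative NDUFA4L2, known as a gene that hypoxia induces, was at 0.396 and 0.242 FPKM against 1.51 and 1.86 FPKM (1.03, limma adjusted p = 0.00548), and it passed the filter only through the sh-LDB1 libraries. NDUFA4L2 was 0.861% and 0.482% of NDUFA4 in the control and 4.46% and 5.18% after the knockdown. COX6B2, a testis form, was at 0.616 and 0.142 FPKM against 0.131 and 0.242 FPKM. No deposited row bore the name COX4I2 or COX6A2.

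In the ATP synthase, the ring of c subunits that turns in the membrane is made from 3 genes that encode the same mature protein, and these genes moved in different directions. ATP5MC3 (ENSG00000154518, chromosome 2, 175176258 to 175181710, minus strand) was at 117.9 and 107.2 FPKM in the control libraries and at 47.8 and 46.4 FPKM after the knockdown (log2 difference -1.24, standard error 0.06, limma adjusted p = 0.000188). ATP5MC1 (ENSG00000159199, chromosome 17, 48892765 to 48895871, plus strand) was at 29.8 and 23.3 FPKM against 51.4 and 49.8 FPKM (0.91, standard error 0.12, limma adjusted p = 0.00289). ATP5MC1 was the nuclear subunit gene with the largest rise, and its groups did not overlap. ATP5MC2 was at 66.05 and 64.43 FPKM against 55.2 and 52.0 FPKM (-0.28, limma adjusted p = 0.00705), a call that was lost under TPM scaling (-0.11) and without sh-LDB1 replicate 2 (-0.24). The summed level of the 3 genes was 213.7 and 195 FPKM in the control and 154.5 and 148.1 FPKM after the knockdown. Of this sum, ATP5MC3 made up 55.2% and 55.0% in the control and 30.9% and 31.3% after the knockdown. ATP5MC1 made up 13.9% and 12.0% in the control and 33.3% and 33.6% after the knockdown. The rise of ATP5MC1 and the fall of ATP5MC3 kept their direction and passed under each scaling and with each library left out in turn.

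**Figure D4:**
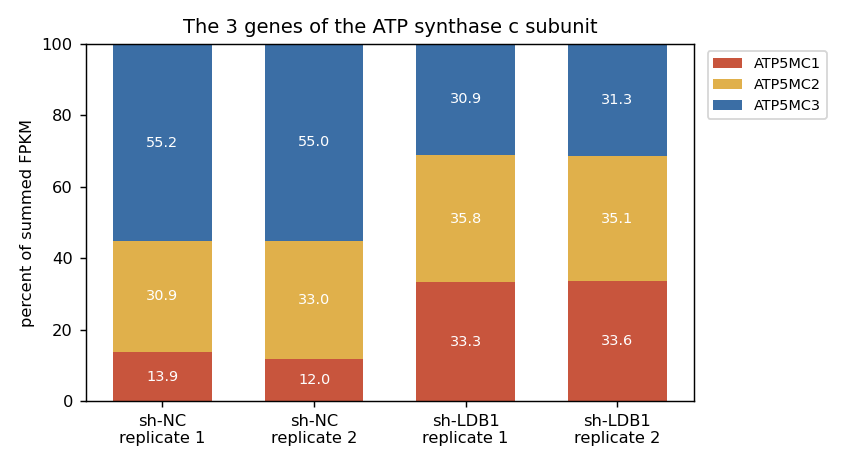
Percent of the summed FPKM (vertical axis) of ATP5MC1, ATP5MC2 and ATP5MC3 in each library (horizontal axis). The share of ATP5MC3 goes from 55.2% and 55.0% in sh-NC to 30.9% and 31.3% in sh-LDB1, and that of ATP5MC1 from 13.9% and 12.0% to 33.3% and 33.6%.

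ATP5F1D, a subunit of the rotating central stalk, was at 95.7 and 103.4 FPKM in the control libraries and at 41.0 and 44.7 FPKM after the knockdown (log2 difference -1.20, standard error 0.07, limma adjusted p = 0.000251). ATP5PO, which ties the head to the peripheral stalk, was at 19.8 and 21.5 FPKM against 10.4 and 8.86 FPKM (-1.03, limma adjusted p = 0.000914). ATP5F1B, the catalytic beta subunit and the nuclear member of highest level, fell less, from 804.7 and 799.5 FPKM to 623.3 and 622.4 FPKM (-0.36, limma adjusted p = 0.00194). ATP5IF1, the inhibitor of the enzyme, was at 45.2 and 34.0 FPKM against 33.3 and 29.8 FPKM and did not pass (-0.31, limma adjusted p = 0.134). Without sh-NC replicate 2 ATP5IF1 was at -0.51. ATP5IF1, like COX8A and COX6A1, passed with voom on recovered reads (limma adjusted p = 0.0231, 0.0104 and 0.00684). The ratio of ATP5IF1 to ATP5F1B was 5.62% and 4.25% in the control and 5.34% and 4.79% after the knockdown, so its groups overlapped.

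Parts of some members are also exons of other genes. Use of strand was not given, so such reads may have been counted for either gene or for neither. Over 20% of the exon bases were shared for 20 members, among them ATP5ME, NDUFS7, NDUFB8 and ATP5PO. Without these, 56 of 78 tested members were lower and 5 were higher (71.8% and 6.41%), against 37.4% and 29.9% of all genes. Of the 4 antisense, divergent or read-through RNAs, NDUFV2-AS1 was tested. It was at 1.51 and 1.80 FPKM in the control libraries and at 2.57 and 2.63 FPKM after the knockdown (log2 difference 0.44, limma adjusted p = 0.0185), and it shares bases with NDUFV2. NDUFV2 was at 2.85 and 2.38 FPKM against 0.898 and 0.951 FPKM (-0.91, limma adjusted p = 0.00305), with as few as 39 reads in a library, and it passed the filter only through the sh-NC libraries.

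Genes that build the complexes were followed next. Of 18 complex I assembly factors, 12 were lower and 4 higher (66.7% and 22.2%, median -0.52), against 37.4% and 29.9% of all genes (median -0.08). Without NDUFAF5, which passed the filter only through the sh-NC libraries, 11 of 17 were lower and the median was -0.38. NDUFAF8 (-1.24) and DMAC1 (-1.17) had the largest falls, and NDUFAF3 (0.94) and NDUFAF1 (0.62) had the largest rises. NDUFAF3 was at 18.8 and 21.1 FPKM in the control libraries and at 38.7 and 39.6 FPKM after the knockdown. Of 33 factors tested for complexes II to V, 16 were lower and 7 higher (48.5% and 21.2%, median -0.26, against the same 37.4% and 29.9%). Their count was 9 lower without sh-LDB1 replicate 2, and 4 were higher without sh-LDB1 replicate 1 or without sh-NC replicate 2. SDHAF4 (-1.36), which acts on SDHA, and BCS1L (-1.06), which places the iron-sulfur protein of complex III, had the largest falls. TMEM70 (0.94), a factor for the ATP synthase, and PET100 (0.63), for complex IV, had the largest rises, and PET100 missed the threshold without sh-LDB1 replicate 1 (0.49), without sh-NC replicate 2 (0.57) or without the filter on low genes (limma adjusted p = 0.0553). NDUFAB1, an acyl carrier protein that is also a complex I subunit, lay outside the name rule and was at 57.4 and 65.8 FPKM against 31.4 and 30.4 FPKM (-0.97).

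Genes that copy and read mitochondrial DNA were mostly lower, with 12 lower and 2 higher of 17 (70.6% and 11.8%, median -0.70), against 37.4% and 29.9% of all genes. TFAM, which packs mitochondrial DNA and starts its transcription, was at 23.7 and 25.0 FPKM in the control libraries and at 13.5 and 12.6 FPKM after the knockdown (log2 difference -0.85). TWNK, the replicative helicase, was at 12.0 and 9.98 FPKM against 4.08 and 3.61 FPKM (-1.30). MTERF2 (-1.80) and MTERF3 (-1.58), of the family of termination factors, fell further. The RNA polymerase POLRMT was at 37.7 and 40.1 FPKM against 33.5 and 33.7 FPKM (-0.20), and its call was lost under 4 of the 5 other scalings (-0.12 to -0.03) and without either sh-LDB1 library (-0.20 and -0.21). POLG (0.31), the DNA polymerase, and TFB2M (0.23), a transcription factor, were higher, and TFB2M missed the threshold without either sh-LDB1 library (0.25 and 0.22). Of 16 genes of mitochondrial RNA processing, 12 were lower and 2 higher (75% and 12.5%, median -0.60). PNPT1, which degrades RNA, was at 20.9 and 23.1 FPKM against 6.08 and 6.41 FPKM (-1.66), and FASTKD1 was at -1.37. FASTK, whose mitochondrial form is known to act on the MT-ND6 mRNA, was at 21.3 and 20.5 FPKM against 43.5 and 46.1 FPKM (1.06). FASTKD5 (0.22) missed the threshold without either sh-NC library (0.23 and 0.21), without sh-LDB1 replicate 1 (0.14), and without the filter or the trend.

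Of 11 regulators of nuclear respiratory genes tested, 6 were lower and 3 higher (54.5% and 27.3%, median -0.40), against 37.4% and 29.9% of all genes. PERM1 passed the filter only through the sh-LDB1 libraries and GABPB2 only through the sh-NC ones, and without these 5 of 9 were lower and 2 higher. NRF1 was at 7.04 and 5.75 FPKM in the control libraries and at 4.48 and 4.52 FPKM after the knockdown (log2 difference -0.42), and it missed the threshold under TPM scaling (-0.28), without the filter (limma adjusted p = 0.0552) and without either sh-LDB1 library (-0.42 and -0.43). GABPA did not pass as deposited (0.26) and passed as higher under each of the 5 other scalings (0.26 to 0.42), whereas its partner GABPB1 was lower (-0.86). MYC was at 159.1 and 160.9 FPKM against 27.3 and 28.1 FPKM (-2.49). PERM1, a muscle regulator, was at 0.235 and 0.257 FPKM against 4.12 and 3.995 FPKM (2.02), and ESRRA (0.44) was also higher. PPARGC1A was listed at 0 in both sh-NC libraries and at 0.0115 and 0.0243 FPKM in sh-LDB1. PPARGC1B was at 2.16 and 2.01 FPKM against 1.39 and 1.21 FPKM (-0.42), a call that was lost under TPM scaling (-0.32), without the filter, and with each of the 4 libraries left out, when it ranged from -0.48 to -0.37.

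Of 19 genes of electron carriers and coenzyme Q synthesis tested, 8 were lower and 7 higher (42.1% and 36.8%), which is near the shares over all genes, 37.4% and 29.9%. Their median was 0.14, and -0.06 without COQ6, which passed the filter only through the sh-LDB1 libraries. CYCS, cytochrome c, was at 71.3 and 68.5 FPKM in the control libraries and at 77.0 and 76.8 FPKM after the knockdown (log2 difference 0.14). Its call was lost without sh-NC replicate 2 (0.11) or either sh-LDB1 library (0.14 in both cases), and also with the trimmed mean scaling (0.13), the replicate block (limma adjusted p = 0.0757), no filter (0.0545) or no trend (0.101). The enzyme that makes the tail of coenzyme Q has 2 subunits, and their genes moved in opposite directions. PDSS1 was at 12.3 and 12.8 FPKM against 2.97 and 2.64 FPKM (-1.83), and PDSS2 was at 3.59 and 4.01 FPKM against 7.92 and 7.27 FPKM (0.84). AIFM1 (-1.46) fell and COQ10B (0.99) rose. Among 20 general genes of the mitochondrial membranes and matrix, 16 were lower and 2 higher (80% and 10%, median -0.42), against 37.4% and 29.9% of all genes (median -0.08). HSPD1, the matrix chaperonin, was at 204.6 and 218.5 FPKM against 24.9 and 24.9 FPKM (-3.04), and OPA1, which shapes the inner membrane, was at -1.05. The higher genes were the carrier SLC25A6 (0.49) and the outer membrane channel VDAC2 (0.33). The median of the nuclear subunits, -0.39, lay close to that of this list.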

How the data were processed

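RNA-seq libraries of 2 sh-NC and 2 sh-LDB1 samples were compared. Reads were filtered and mapped by the authors with HISAT (HISAT2 2.0.5 and hg38 in the submitters' processing notes), who deposited 1 table of FPKM per gene and library. Counting tool, annotation and use of strand were not given in the sources used here. Gene positions and lengths came from GENCODE release 44. Whole reads were recovered from the FPKM steps for 99.3% of genes (within 0.005 reads). They rest on fitted gene lengths. Columns of no sample numbered 0.

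Levels were log2(FPKM + 1). Genes that averaged 1 FPKM or more were fitted with limma 3.58.1 (R 4.3.3, eBayes with trend, no block) and p-values were adjusted by Benjamini-Hochberg over 13300 genes. Python 3.11.15 with pandas 2.3.3 was used otherwise. The steps were tested on simulated data.

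Members, lists and the rule for named genes were chosen with earlier results of these data known. Named were LDB1, the 13 mitochondrial mRNAs, per complex the member of highest level and the 3 largest rises and falls past the threshold, the isoform genes, the 2 largest rises and falls of each list, and 9 regulators and carriers. UQCRC1, SDHD, UQCRHL, CYC1, NDUFC1, NDUFA1, NDUFV2, NDUFV2-AS1, NDUFA7, the ribosomal RNAs, the genes named only for a shared exon, a printed promoter, a cell type or a call under TPM, MT-TG, MTND2P28, NDUFAF5, GABPB2 and COQ6 were added after their values were seen.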

Additional observations from a re-analysis of the deposited data

How the results depend on the processing

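Results of the fit across genes were recomputed with another pseudocount (0.1), without the filter, with 5 other scalings, with the replicate block, without the trend, with voom on recovered reads and with each library left out; scaling by total recovered reads and the omission of members that share over 20% of exon bases, or that average 1 FPKM or more in one group only, were chosen after seeing the data. Under these the members stayed mostly lower, with 48 to 72 lower and 4 to 11 higher. With an adjusted p below 0.01 required, 50 were lower and 4 higher. Of 224 counts of the pathway lists under these settings, 9 differed by more than 1.5 times, as did 18 of 32 under stricter thresholds. No member called lower became a member called higher under any of them. With TPM scaling and with scaling by total recovered reads, 11 members, all nuclear, were higher. With a fold change above 2 or below 0.5 also required, 1371 genes were lower and 1264 higher over all genes, 9 and 1 among all members, 7 and 1 among nuclear members, and 2 of the mitochondrial mRNAs were lower. The median of all members was -0.27 with TPM, -0.33 with a median of ratios over expressed genes and -0.31 with total reads. For nuclear members it was -0.21, -0.28 and -0.26 in the same order, and for mitochondrial mRNAs -0.71, -0.78 and -0.76, and -0.80 when scaled over nuclear genes. The log2 ratio of the summed mitochondrial mRNAs, -0.78 as deposited, was -0.61 with TPM, -0.70 over nuclear genes, -0.68 with the median of ratios and -0.66 with total reads, and that of the nuclear subunits, -0.45 as deposited, was -0.28, -0.36, -0.35 and -0.32. MT-ND6 turned to 0.062 with TPM and to 0.015 with total reads, and ranged from -0.31 to 0.085 when single libraries were left out, as MT-ATP8 did from -0.77 to 0.058. The fall of LDB1 ranged from -3.69 to -3.40. Of 1078 values of the 77 named genes with a test, 1000 kept their direction and side of the threshold, 57 no longer passed, 17 newly passed and 4 changed sign. Leaving out sh-LDB1 replicate 1 or 2 cost 12 and 11 of the named calls. The cause of these changes was not tested.

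The replicate numbers shared by the groups were not treated as pairs. The differences between replicates 1 and 2 of the groups correlated by only 0.0196 over genes. This value cannot show whether the samples were prepared in pairs. With the replicate block, 66 members were lower and 6 higher, and 4808 genes were lower and 3890 higher over all. Samples with 2 per group limit each test to the spread between these libraries, and reads of low members, such as the 10 behind NDUFA4L2 in a library, limit those further.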
